A study of Mus musculus with 12 samples.

Results

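A set of 3788 promoter peaks was open in mouse embryonic stem cells (mESCs) and absent from the peak lists of mouse embryonic fibroblasts (MEFs). Each was a peak of the table built from the BGI data, lay within 1000 bp of an annotated start of a protein-coding gene, and did not lie near the starts of genes on opposite strands. Each overlapped the deposited mESC list of both sequencing platforms by at least 1 bp and no MEF list. They made up 14.6% of the 25901 protein-coding promoter peaks among 91354 peaks in all, and touched 3103 genes. Another 13806 promoter peaks were open in both cell types, 2415 were open only in MEFs, and 1972 were shared by opposite-strand genes. The peak lists chose the members, and the lists rest on the same reads as the counts. All mESC-against-MEF values at the members are therefore descriptions, given without a test.

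The accessibility data came from OMNI-ATAC-seq, in which the Tn5 transposase inserts adapters into open chromatin of purified nuclei. MEFs were sorted as THY1+ cells, and mESCs as THY1- cells that carried SSEA1 and EPCAM, both on a C57/Bl6 background. There were 3 MEF and 3 mESC libraries, and each was sequenced with the DNBSEQ-G400 of BGI and with the HiSeqX10 of Illumina, which gave 12 samples in 4 groups of 3. Replicates carry the library numbers 1, 2 and 4 in MEFs and 1, 3 and 5 in mESCs, so a mean over 6 samples of a cell type rests on 3 libraries. No treatment, passage number or age was given in the labels, and each library was read once per instrument, so instrument and sequencing run cannot be told apart.

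Promoters are the stretches around transcription start sites where general transcription factors and RNA polymerase assemble. Many mammalian promoters are CpG islands, which are rich in unmethylated CpG and open in most cell types. CpG-poor promoters are more often tied to a cell type or closed by DNA methylation. Mouse ESCs are kept pluripotent by POU5F1, SOX2, NANOG, ESRRB and KLF factors. They are also epithelial, joined by E-cadherin, whereas MEFs are mesenchymal and express ZEB and SNAI repressors, which bind the E-box CACCTG at epithelial genes. A group of germline genes, held silent by promoter methylation in somatic cells, is partly accessible in pluripotent cells.

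Sequence stretches of 250 bp that end at the gene's own start, hold no annotated exon and carry these motifs are shown first, from the GRCm38 (mm10) genome. They were chosen after their values were seen. All are written 5′ to 3′ on the gene's strand, and capitals mark the motif on either strand, where a reverse CACCTG reads CAGGTG. The first set comes from promoters with CACCTG, the most frequent of the 17 motifs searched: Marveld3 (chr8:109962204-109962453, minus strand), a tight-junction protein, Epcam (chr17:87635729-87635978, plus strand), the adhesion molecule used in the sort, Cldn4 (chr5:134946935-134947184, minus strand), a claudin, and Nanog (chr6:122707239-122707488, plus strand).
Marveld3: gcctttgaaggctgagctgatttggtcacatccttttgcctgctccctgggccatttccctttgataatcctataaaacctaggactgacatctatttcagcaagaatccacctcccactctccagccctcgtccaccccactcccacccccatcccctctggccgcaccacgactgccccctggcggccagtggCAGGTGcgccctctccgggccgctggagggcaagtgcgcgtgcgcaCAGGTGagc
Epcam: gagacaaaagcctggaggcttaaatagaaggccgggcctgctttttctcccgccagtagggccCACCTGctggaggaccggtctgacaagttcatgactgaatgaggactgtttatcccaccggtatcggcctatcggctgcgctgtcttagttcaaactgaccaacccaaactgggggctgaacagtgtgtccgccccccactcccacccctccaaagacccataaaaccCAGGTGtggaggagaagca
Cldn4: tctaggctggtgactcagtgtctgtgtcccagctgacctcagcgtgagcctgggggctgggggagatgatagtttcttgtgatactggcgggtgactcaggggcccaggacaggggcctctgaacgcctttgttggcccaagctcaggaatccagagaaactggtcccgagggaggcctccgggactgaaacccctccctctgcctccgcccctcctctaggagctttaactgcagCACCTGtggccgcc
Nanog: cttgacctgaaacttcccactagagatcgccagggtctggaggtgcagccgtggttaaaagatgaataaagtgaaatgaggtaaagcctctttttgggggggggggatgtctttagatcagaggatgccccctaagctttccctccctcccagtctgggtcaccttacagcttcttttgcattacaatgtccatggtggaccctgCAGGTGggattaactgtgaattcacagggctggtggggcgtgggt

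The second set carries the octamer ATGCAAAT, bound by POU5F1 and other POU factors. It is shown because members with this motif had a larger median difference between the cell types than those without it. The stretches belong to Zfp42 (chr8:43306981-43307230, minus strand), which encodes the pluripotency marker REX1, Gm14124 (chr2:150257267-150257516, plus strand), a predicted zinc finger gene, and Mageb16 (chrX:79671436-79671685, minus strand), a MAGE family gene.
Zfp42: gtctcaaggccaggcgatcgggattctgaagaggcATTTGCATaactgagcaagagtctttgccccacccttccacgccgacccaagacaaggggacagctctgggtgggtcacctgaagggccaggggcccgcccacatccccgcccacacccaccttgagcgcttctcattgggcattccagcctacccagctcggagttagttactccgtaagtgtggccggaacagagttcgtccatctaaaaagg
Gm14124: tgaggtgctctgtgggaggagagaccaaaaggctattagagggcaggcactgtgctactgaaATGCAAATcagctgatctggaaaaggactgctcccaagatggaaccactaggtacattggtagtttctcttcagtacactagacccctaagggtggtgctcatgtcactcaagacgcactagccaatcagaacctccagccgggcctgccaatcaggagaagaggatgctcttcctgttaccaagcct
Mageb16: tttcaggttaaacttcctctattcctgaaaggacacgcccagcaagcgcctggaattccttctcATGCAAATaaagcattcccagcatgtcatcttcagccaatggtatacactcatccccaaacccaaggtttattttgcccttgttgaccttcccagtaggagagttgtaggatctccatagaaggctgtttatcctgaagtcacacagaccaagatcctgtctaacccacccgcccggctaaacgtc

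The third set shows germline genes with the NRF1 motif GCGCATGCG or the E-box CACGTG, both of which contain CpG. At Tex19.1 and Stk31 the NRF1 motif matched on both strands in overlapping positions. The stretches belong to Tex19.1 (chr11:121145893-121146142, plus strand), Stk31 (chr6:49395354-49395603, plus strand) and Brdt (chr5:107330909-107331158, plus strand), a testis bromodomain gene.
Tex19.1: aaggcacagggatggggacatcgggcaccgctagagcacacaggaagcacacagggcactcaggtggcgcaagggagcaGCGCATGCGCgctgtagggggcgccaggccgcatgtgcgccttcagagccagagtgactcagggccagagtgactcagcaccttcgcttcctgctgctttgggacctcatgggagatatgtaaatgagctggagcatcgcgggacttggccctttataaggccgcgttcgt
Stk31: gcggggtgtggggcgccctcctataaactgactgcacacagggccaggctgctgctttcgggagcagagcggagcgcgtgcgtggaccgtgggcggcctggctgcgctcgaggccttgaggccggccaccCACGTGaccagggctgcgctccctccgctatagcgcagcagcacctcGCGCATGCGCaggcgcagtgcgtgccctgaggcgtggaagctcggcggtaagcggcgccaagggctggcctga
Brdt: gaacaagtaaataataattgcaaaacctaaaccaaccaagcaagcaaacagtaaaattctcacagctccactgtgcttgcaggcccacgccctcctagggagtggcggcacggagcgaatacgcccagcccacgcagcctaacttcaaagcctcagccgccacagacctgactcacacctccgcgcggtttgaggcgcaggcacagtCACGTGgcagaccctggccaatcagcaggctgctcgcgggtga

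The positions of these matches are descriptions of letters, not of bound sites. Motifs were searched as exact strings, so sites with a variant sequence are neither marked nor counted. CACCTG began 14 bp before the start at Cldn4 and 45 bp at Nanog. Epcam and Marveld3 held 2 matches each. The octamer lay 186 to 215 bp before the start at Mageb16, Gm14124 and Zfp42. At Brdt the E-box began 43 bp before the start.

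The sample labels were compared with promoter peaks of marker genes. All 8 mESC markers were higher in mESCs, with a summed promoter level of 220 to 277 CPM (read counts scaled to a common total of reads in peaks per sample, corrected by TMM factors) against 22.4 to 25.9 CPM in MEFs. Each gene stands for its promoter peak with the highest level over both cell types. Of these 8 peaks, 5 are members, whose direction the rule largely fixed, so they are a weak check of the labels. Pou5f1 and Epcam have members at other peaks. The 8 MEF markers, none of them a member, summed to 265 to 311 CPM in MEFs and 76.5 to 88.7 CPM in mESCs, and Pdgfra alone was not lower in mESCs. Promoters of the leukocyte gene Csf1r were at 13.5 to 17.5 CPM in MEFs and 0.615 to 2.70 CPM in mESCs, while Ptprc, Cdh5 and Cdx2 had no promoter peak. Primitive endoderm markers summed to 64.4 to 77.9 CPM in mESCs and 99.8 to 113 CPM in MEFs, trophoblast markers to 23.2 to 31.8 and 13.0 to 19.0 CPM, early neural markers to 36.2 to 49.6 and 18.4 to 26.8 CPM, and endothelial markers to 19.4 to 22.9 and 20.7 to 28.7 CPM. The early neural sum mixed Sox1, a member at 29.1 CPM in mESCs and 5.07 CPM in MEFs, with Pax6. The Pax6 peak used, not a member, was at 12.2 CPM in mESCs and 17.2 CPM in MEFs. In primitive endoderm, Sox17, a member, and Gata4 were higher in mESCs, and Gata6 and Dab2 were lower. The part of other cell types in the members' values was not tested. In bulk samples, openness in fewer cells and weaker openness in every cell cannot be told apart.

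At the members, accessibility was higher in mESCs at the median, but the range was wide and some promoters did not follow the label. Their median level was 9.35 CPM in mESCs (quartiles 7.31 and 13.0) and 2.52 CPM in MEFs (quartiles 1.16 and 4.28). The median log2 difference between cell types, mESC minus MEF, reached 2.03 in BGI data and 2.01 in Illumina data, while over all peaks it was -0.08 and -0.07. Promoters open in both cell types had a median of -0.19 on either platform, and promoters open only in MEFs of -1.61 and -1.58. Averaged over the platforms, the members' log2 differences ran from -1.55 to 6.89. Of the 3788 members, 753 (19.9%) were below 1, 83 were below 0, 991 (26.2%) were above 3 and 97 were above 5.

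The 12 samples separated by cell type in their median member level. The median member level was 2.34 to 2.60 CPM in the MEF samples and 9.05 to 9.64 CPM in the mESC samples. Members took 4.42 to 4.62% of reads in peaks in mESC samples and 1.11 to 1.28% in MEF samples. Between replicates, the median coefficient of variation was 11.3% and 11.1% in mESCs on BGI and Illumina, and 19% and 18% in MEFs, where counts were lower. Every mESC sample lay above every MEF sample at 3554 members (93.8%) on BGI and 3461 (91.4%) on Illumina, and at 3434 (90.7%) on both. Over all 91354 peaks the shares were 41.7% and 39.7%, and nothing is read from the contrast because the lists used it. The order was the opposite, every mESC sample below every MEF sample, at 38 members on BGI and 69 on Illumina.

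The members' differences were similar on the platforms, which the rule favours, since it required both mESC lists and neither MEF list. The log2 difference on BGI minus that on Illumina had a median absolute value of 0.16. It exceeded 1 in size at 14 members, and the sign of the difference between cell types changed with the platform at 45.

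A low MEF level was not shared by all members. Their mean MEF level was under 1 CPM at 772 promoters (20.4%) and above 5 CPM at 688 (18.2%). In mESCs 326 members (8.61%) exceeded 20 CPM, and the range was 3.69 to 111 CPM. The scatter of MEF against mESC levels shows a continuous cloud with no gap between low and high MEF values.

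**Figure D1:**
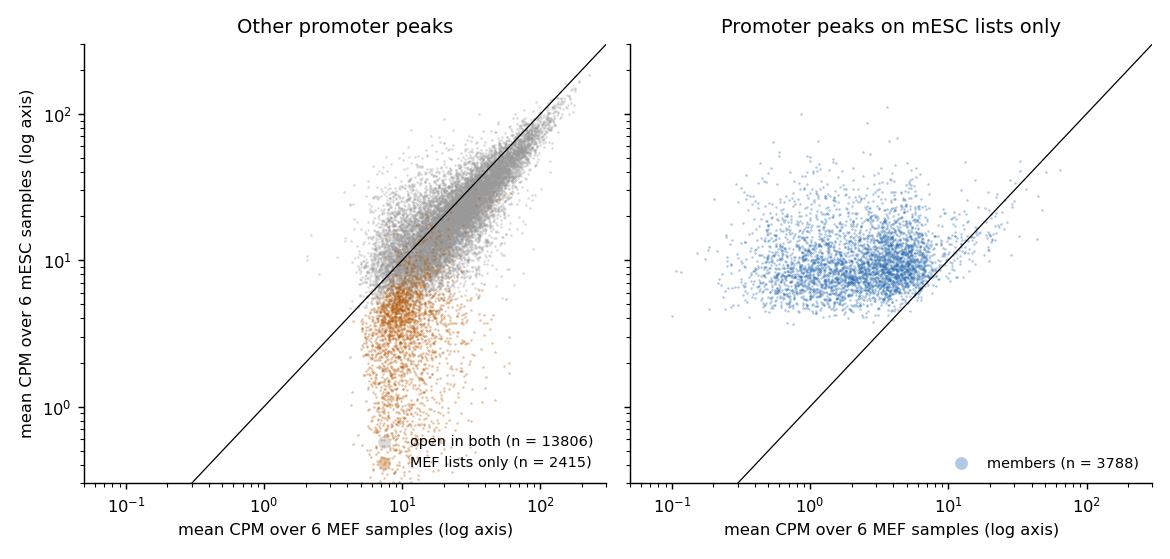
Mean CPM over 6 mESC samples against mean CPM over 6 MEF samples, both on log axes, for promoters open in both cell types or only in MEFs (left) and for the 3788 members (right), with a line of equal level. Members lie mostly above the line and spread without a gap to it, and 83 have a log2 difference below 0.

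The median difference was smaller in members that lay closer to a peak on a MEF list, but weak members were found at every distance. In 518 members (13.7%) a MEF-list peak began within 250 bp of the member's edge, and there the median log2 difference was 0.88, with 69 of the 518 below 0. The median was 1.48 between 250 and 500 bp, 1.83 from there to 1000 bp, 2.25 up to 5000 bp and 2.48 beyond 5000 bp, where 1616 members (42.7%) lay. Of the 83 members below 0, 73 were within 500 bp of a MEF-list peak, whereas of the 753 below 1, 392 were within and 361 beyond it. The 2950 members (77.9%) further away had a median log2 difference of 2.30 and separated the samples on both platforms at 95.4%, against 1.07 and 73.9% for the 838 nearer ones. A fixed-width peak beside another can share its reads, and the part of this in the MEF level was not tested.

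**Figure D2:**
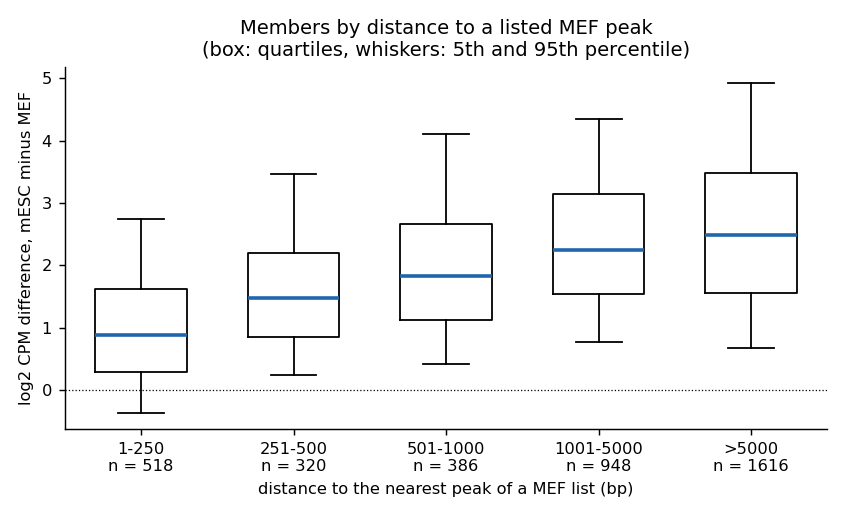
Log2 difference, mESC minus MEF, of members grouped by the distance from the peak's edge to the nearest peak on a MEF list (bp), as boxes of median and quartiles with whiskers at the 5th and 95th percentile. The medians are 0.88, 1.48, 1.83, 2.25 and 2.48 from the nearest to the furthest class.

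Fosl2, an AP-1 subunit gene, had the lowest difference and was higher in MEFs. Its member peak was at 31.5, 31.2 and 43.3 CPM in MEFs and 12.3, 13.1 and 12.4 CPM in mESCs on BGI, and at 49.7, 48.0 and 60.1 against 16.6, 15.8 and 14.1 CPM on Illumina. The groups did not overlap, in the direction opposite to the label, and a MEF-list peak began 111 bp away. Thbs1 (thrombospondin), Etfb (an electron transfer flavoprotein) and Plec (plectin) followed with log2 differences of -1.31, -1.09 and -1.06, each within 97 bp of a MEF-list peak. Zfp57, an imprinting zinc finger gene, differed little at an internal start 4767 bp from a MEF-list peak. It was at 21.2, 23.9 and 20.8 CPM in MEFs and 28.2, 33.1 and 26.5 CPM in mESCs on BGI, and at 21.3, 25.3 and 21.8 against 24.4, 33.2 and 24.1 CPM on Illumina, where the groups overlapped.

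The authors' per-sample peak calls, made at a loose threshold before the lists were filtered, often held the members in MEFs as well. An interval from at least 1 MEF sample overlapped 2778 members (73.3%), and intervals from all 6 MEF samples overlapped 1941 (51.2%). With a −log10 p of 10 or more required, an interval from at least 1 MEF sample overlapped 2042 of the 3788 members (53.9%). Each MEF sample had intervals at 2292 to 2398 members (60.5 to 63.3%), while each mESC sample had them at 70.9 to 76.6% of the promoters open only in MEFs, so such calls were not particular to the members. In MEFs the members' intervals had a median −log10 p of 14.9 to 18. In mESC samples 3787 members were called in all 6, with a median −log10 p of 51.3 to 54.8. Membership thus follows the filtered lists, while 1010 members had no interval in any MEF sample.

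Promoters near the rule's limits had these values, as a description. At exactly 1000 bp from a start, Cdk5rap2 was at 7.59 CPM in mESCs and 1.21 CPM in MEFs, and Nkain4 at 12.3 and 1.80 CPM. Just outside that limit, Gm28051 was at 10.8 and 3.17 CPM and Hist1h4d at 9.31 and 4.12 CPM. The 704 promoter peaks on a single mESC list and no MEF list had median levels of 6.39 and 2.94 CPM. The 1137 on both mESC lists and a single MEF list had median levels of 11.7 and 8.95 CPM.

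Members lay at alternative starts inside genes as well as at the start of the gene itself. A gene's own start was within 1000 bp of 1786 members (47.1%), and the other 2002 (52.9%) were near an internal start of a shorter transcript. Of the members, 2737 (72.3%) belonged to a gene with another promoter peak on a MEF list, so the gene had an open promoter in fibroblasts elsewhere. The remaining 1051 members, in 884 genes, had none. The largest class, 1770 members (46.7%), was internal with another promoter open in MEFs, with a median log2 difference of 2.32. The 819 members at a gene start with no other promoter open in MEFs had a median of 2.03, and the 967 at a gene start with another open in MEFs one of 1.37. At gene starts 82.0% of the nearest starts belonged to a coding transcript, and at internal starts 39.3%.

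Zmynd8, a chromatin reader gene, carried the member with the highest mESC level, at an internal start (chr2:165861580-165862081). It was at 3.82, 4.69 and 4.19 CPM in MEFs and 126, 120 and 116 CPM in mESCs on BGI, and at 2.59, 3.65 and 2.69 against 113, 98.2 and 90.4 CPM on Illumina. The groups lay far apart, while 6 other promoter peaks of the gene were on a MEF list. Agps, a peroxisomal ether lipid enzyme gene, had a like internal member at 65.4 CPM in mESCs and 1.14 CPM in MEFs (log2 difference 5.84). Shroom3, an actin-binding protein of epithelia, was at 53.1 and 2.72 CPM with 5 other promoter peaks on a MEF list. Nop58, a nucleolar ribonucleoprotein gene, was at 51.7 and 0.949 CPM, and Ano8, an anoctamin, at 65.3 and 3.73 CPM.

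Several members often fell in the same gene, which makes them neighbours rather than independent promoters. There were 554 genes with at least 2 members and 117 with at least 3. Myo10, an unconventional myosin of filopodia, had 8, with log2 differences between 2.42 and 4.11. Slc37a1, a sugar phosphate transporter, had 6, which ran from 0.95 to 4.76. Rbpms, an RNA-binding protein, had 6, from 0.80 to 2.78. Mybl2, a cell cycle regulator, had 5, of which the peak at chr2:163075208-163075709 was at 45.5 CPM in mESCs while the other 4 were at 6.89 to 8.97 CPM. Ppp2r3d, a phosphatase regulatory subunit, also had 5, with mESC levels of up to 68.4 CPM.

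Genes of the pluripotency network were often represented. Of 40 pluripotency genes with a promoter peak, 27 (67.5%) had a member, against 3103 of 15126 protein-coding genes (20.5%). Their 47 members had median levels of 15.2 CPM in mESCs and 1.29 CPM in MEFs and a median log2 difference of 3.37, against 2.01 over all members. Of the 47, 45 separated every mESC from every MEF sample on both platforms, a share near the 90.7% of all members, and 31 belonged to genes with no other promoter open in MEFs. The gene lists were drawn up with earlier results of these data known, so the shares are descriptions with no test.

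Zfp42 (chr8:43306878-43307379) had the highest level of these genes. It was at 1.53, 0.969 and 1.20 CPM in MEFs and 53.5, 55.4 and 46.4 CPM in mESCs on BGI, and at 1.10, 0.313 and 0.862 against 43.8, 44.9 and 40.0 CPM on Illumina. Nanog (chr6:122707205-122707706), the homeobox factor of naive pluripotency, was at 0.812, 1.63 and 0.649 CPM in MEFs and 21.3, 27.5 and 19.5 CPM in mESCs on BGI, and 0.150, 1.30 and 1.12 against 22.2, 25.5 and 21.9 CPM on Illumina. In both genes the groups were far apart, and library 3 was the highest mESC library on either platform. The log2 differences on BGI and Illumina were 5.29 and 5.88 at Zfp42 and 4.41 and 5.04 at Nanog.

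Pou5f1, which encodes OCT4, had 3 members around its start. The peak over the start was at 0.621, 0.816 and 0.300 CPM in MEFs and 13.9, 17.7 and 11.4 CPM in mESCs on BGI, and 0.549, 1.25 and 0.507 against 15.2, 18.7 and 14.0 CPM on Illumina. The most upstream peak (chr17:35504530-35505031) was higher, at 26.0, 28.7 and 28.9 CPM in mESCs on BGI and 25.4, 26.3 and 29.6 CPM on Illumina, with MEF samples at 0.417 to 0.899 CPM. Esrrb, an orphan nuclear receptor, had 3 members at internal starts, the strongest with a log2 difference of 6.01 from mESC levels of 21.3 to 29.8 CPM and MEF levels of 0.203 to 0.430 CPM. Tdgf1, the NODAL co-receptor, was at 36.4 to 45.8 CPM in mESCs and 0.573 to 2.10 CPM in MEFs. Further down the list, Sall4 had a log2 difference of 3.37, Dppa5a of 5.75, Dppa2 of 2.75, Dppa4 of 4.29 and Dppa3 of 1.45.

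Germline and meiosis genes gave a group with very low MEF levels. Of 91 such genes, 58 had a promoter peak and 33 (56.9%) of these had a member. The 38 members had medians of 10.5 CPM in mESCs and 0.995 CPM in MEFs and a median log2 difference of 3.49. All 38 lay more than 500 bp from a MEF-list peak, 36 separated the samples on both platforms (90.7% of all members did), and 33 had no other promoter open in MEFs. Rec8, the meiotic cohesin subunit, was at 4.39, 7.19 and 4.44 CPM in MEFs and 51.4, 50.6 and 43.4 CPM in mESCs on BGI. Tex19.1, a germline gene of retrotransposon control, was at 2.10, 1.78 and 1.10 against 30.0, 29.2 and 25.7 CPM. At both genes no MEF sample reached an mESC sample on either platform.

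Other germline members ranged widely in level. Meioc, which keeps germ cells in meiotic prophase, was at 32.7 CPM in mESCs and 1.73 CPM in MEFs. Dmc1, the meiotic recombinase, was at 24.7 and 3.32 CPM, and Mael, of the piRNA pathway, at 9.32 and 0.520 CPM. Ddx4, the VASA helicase, was at 9.28 and 0.679 CPM, and Sycp3, of the synaptonemal complex, at 8.82 and 0.896 CPM. Spdya and Tdrd5 were the weakest, with log2 differences of 0.48 and 0.43. Zfp42 is on this list and on the pluripotency list.

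Epithelial adhesion genes formed the third well represented group, with smaller differences. A member was found at 29 of 52 genes (55.8%), and the 41 members had medians of 10.2 CPM in mESCs and 3.02 CPM in MEFs and a median log2 difference of 1.98. Samples separated on both platforms at 40 of the 41, against 90.7% of all members. Cldn4, a claudin of tight junctions, was at 3.92, 4.13 and 3.39 CPM in MEFs and 49.9, 29.5 and 41.8 CPM in mESCs on BGI, and 5.09, 4.06 and 2.94 against 47.8, 29.2 and 38.1 CPM on Illumina. Here the mESC libraries differed among themselves, with library 3 lowest on both platforms. Jup, the junction plakoglobin, was at 26.5 and 1.28 CPM at an internal start.

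Other epithelial members were at lower levels. Ocln (occludin) was at 19.6 CPM in mESCs and 4.39 CPM in MEFs, and Krt8 (keratin) at 11.2 and 1.62 CPM. Esrp1, an epithelial splicing factor, was at 14.6 and 1.39 CPM. Epcam, whose protein was used to sort the mESCs, was at 10.1 and 1.68 CPM and so is no finding about the sorted cells. The member of Cdh1, the E-cadherin gene, was at 14.7 and 2.68 CPM (log2 difference 2.48), with a MEF-list peak beginning 119 bp away.

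Regulators of DNA methylation and chromatin had a member at 19 of 52 genes (36.5%). The 32 members had a median log2 difference of 2.90, but only 6 belonged to genes with no other promoter open in MEFs. Cbx7, the main Polycomb chromodomain protein of ESCs, was at 0.478, 0.765 and 0.300 CPM in MEFs and 40.9, 43.2 and 42.1 CPM in mESCs on BGI, and at 0.150, 0.781 and 0.507 against 37.0, 36.6 and 36.9 CPM on Illumina. Its mESC libraries lay close together on either platform. Tet1, which oxidises 5-methylcytosine, was at 23.7 and 1.17 CPM at an internal start. Dnmt3l, a cofactor of de novo methylation, had 3 members at internal starts with log2 differences of 1.78, 4.22 and 4.62, while Dnmt3b differed by 0.57 and Cbx2 by -0.33.

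Signalling genes of the early embryo had a member at 20 of 48 genes (41.7%), with a median log2 difference of 2.02. Fgf4, the growth factor that ESCs secrete, was at 30.6 CPM in mESCs and 3.13 CPM in MEFs (log2 difference 3.40). Nodal and its antagonist Lefty1 had differences of 3.02 and 2.73, and Eras, an ESC-expressed RAS gene, of 3.24. Tcf7l1, the WNT pathway repressor, had one of 1.98. Notch4 had a difference of -0.21 and so did not follow the label.

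Neuronal and other lineage genes were present among the members as well. Of 92 neuronal genes 34 (37.0%) had a member, with 43 members at a median log2 difference of 1.93. Stmn2, a neuronal tubulin regulator, was at 2.44, 1.84 and 1.85 CPM in MEFs and 21.2, 20.1 and 20.1 CPM in mESCs on BGI. Of 20 genes of other lineages 11 had a member, with a median log2 difference of 2.01. Sox1, of the neural plate, was at 29.1 CPM in mESCs and 5.07 CPM in MEFs, Neurog1, a proneural factor, at 26.5 and 4.74 CPM, and Sox17, of endoderm, at 19.5 and 3.44 CPM. The CpG ratio was higher here than over all members, with 9 of 16 members of other lineages at or above 0.6.

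**Figure D3:**
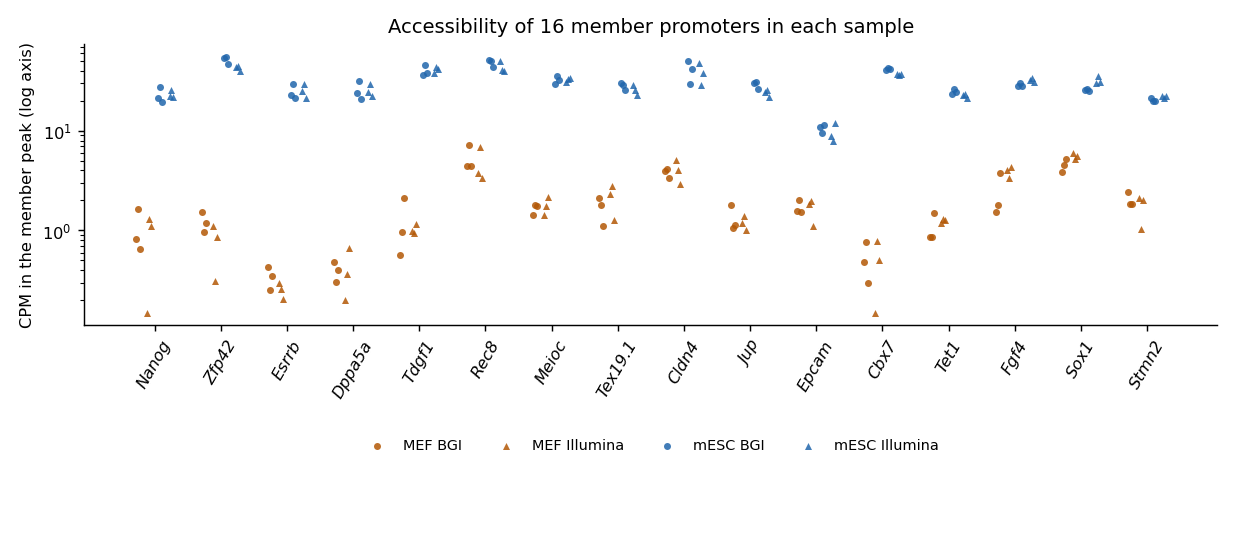
CPM in the strongest member peak of 16 genes (log axis) in each of the 12 samples, with MEFs in orange, mESCs in blue, BGI as circles and Illumina as triangles. At each of these genes, which were chosen after their values were seen, every mESC sample lies above every MEF sample, and Epcam has the lowest mESC levels of the 16.

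Fibroblast identity genes were nearly absent, as the rule left out their open promoters. A member was found at 2 of 44 genes, Fn1 (fibronectin) at an internal start with a log2 difference of 1.75, and Zeb2 with 0.31. Among genes of the early cleavage programme 3 of 26 had a promoter peak and only Duxf3, a member of a repeated gene family, had a member. Genes named as zinc fingers had a member at 57 of 412 (13.8%), with a median log2 difference of 2.76. Solute carriers had one at 76 of 290 (26.2%), with a median of 2.01. Slc6a6, the taurine transporter, was at 30.8 CPM in mESCs and 1.04 CPM in MEFs, Slc1a5, a glutamine transporter, at 31.0 and 5.16 CPM, and Slc8b1, a mitochondrial calcium exchanger, at 31.5 and 1.64 CPM.

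Gm14393, a predicted gene on chromosome 2, had the largest log2 difference, 6.89. Gm14401, also on chromosome 2, was at 0.764, 0.765 and 1.80 CPM in MEFs and 103, 110 and 98.9 CPM in mESCs on BGI, and 0.499, 0.886 and 0.457 against 93.0, 99.2 and 95.7 CPM on Illumina. Gm14124 and Gm14443 on the same chromosome had differences of 6.53 and 6.41, and Zfp936 on chromosome 7 one of 6.33. These genes belong to families of near-identical copies, and reads can be split between copies, so their levels are uncertain. Izumo2, a sperm gene, was at 32.9 CPM in mESCs and 0.293 CPM in MEFs (6.60), Mageb16 at 26.0 and 0.201 CPM (6.53), and Epp13, an epididymal protein gene, at 38.3 and 0.343 CPM (6.52). Ftl1-ps1, a ferritin copy, was at 86.5 and 2.56 CPM and is uncertain for the same reason, while Mymx, a muscle fusion gene, was at 55.2 and 2.43 CPM.

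The members were poor in CpG compared with promoters open in both cell types. Their median GC content was 54.3%, against 62.3% for promoters open in both and 51.7% for those open only in MEFs. The observed-to-expected CpG ratio, which is high in CpG islands, had a median of 0.34 in members, 0.75 in promoters open in both and 0.34 in MEF-only promoters. A ratio of at least 0.6 was found in 639 members (16.9%), in 72.4% of promoters open in both, in 19.3% of MEF-only promoters and in 56.2% of all promoter peaks. Of the members, 40.7% were centred within 250 bp of the start, against 74.1% of promoters open in both and 35.3% of MEF-only promoters. These classes were defined from the same peak lists, and the differences between them were not tested.

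**Figure D4:**
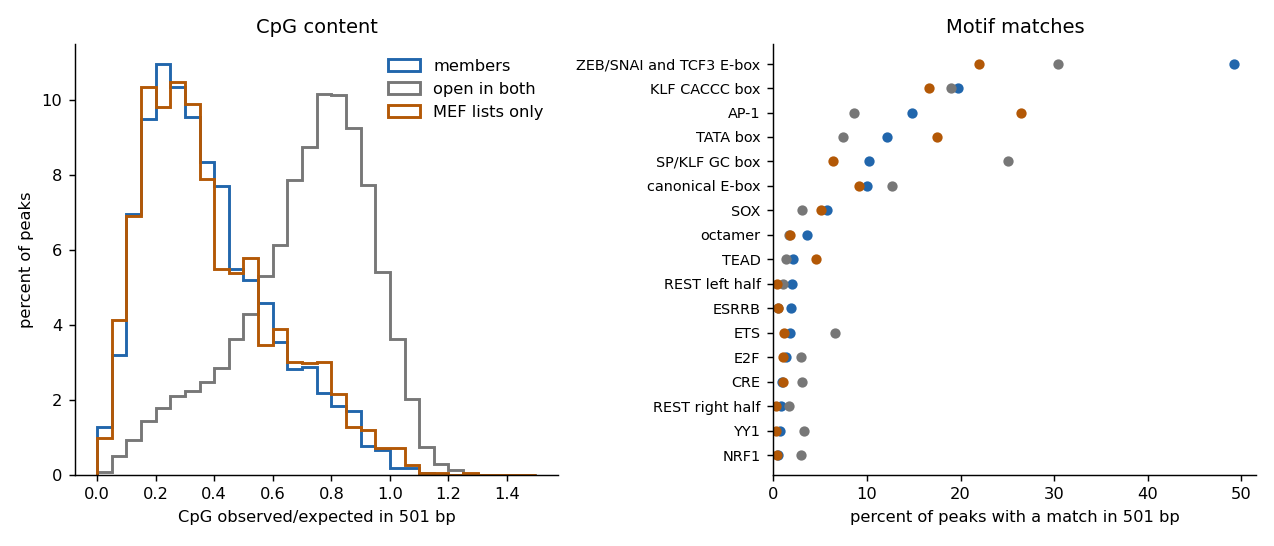
CpG observed-to-expected ratio of members, promoters open in both cell types and promoters open only in MEFs, and the share of each class with each motif within 250 bp of the peak centre (percent). Members and MEF-only promoters share a median ratio of 0.34, and CACCTG is found in 49.2% of members against 30.4% and 21.9% of the other classes.

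Among 17 motifs, searched as exact strings on both strands within 250 bp of the peak centre, CACCTG was the most frequent in members. This E-box, bound by ZEB, SNAI and TCF3 factors, was found in 1862 members (49.2%), in 30.4% of promoters open in both, in 21.9% of MEF-only promoters and in 33.3% of all promoter peaks. Within 100 bp of the centre the shares were 27.7%, 10.5%, 4.31% and 13.1%. Within the members it was found in 33 of 41 epithelial members (80.5%), 62 of 104 solute carrier members (59.6%), 18 of 47 pluripotency members (38.3%) and 2 of 16 members of other lineages (12.5%). The median log2 difference was 2.04 with the motif and 1.98 without it. Marveld3, Epcam and Cldn4, printed above, are among the epithelial members with the motif.

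Motifs of pluripotency factors were rarer. The octamer and the ESRRB motif were held by a larger share of members than of other promoters. The SOX and KLF shares lay close to those of another promoter class. The octamer ATGCAAAT was found in 138 members (3.64%), against 1.67% of promoters open in both, 1.74% of MEF-only promoters and 1.95% of all promoter peaks. Members with it had a median log2 difference of 2.89, and those without it 1.99. The ESRRB motif TCAAGGTCA was found in 72 members (1.90%), against 0.55%, 0.538% and 0.772%. The SOX motif ACAATGG was found in 5.76% of members, 3.11% of promoters open in both and 5.13% of MEF-only promoters. The KLF box CCCCACCC was in 19.7%, 19.0% and 16.6%. Over all peaks, most of them distal, the shares were 3.21% for the octamer, 1.42% for the ESRRB motif, 6.53% for SOX and 15.3% for KLF.

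Motifs of housekeeping promoters were found in a smaller share of members than of promoters open in both cell types. The GC box GGGGCGGGG, which can overlap other GC-rich motifs, was found in 10.2% of members, 25% of promoters open in both and 6.38% of MEF-only promoters. The ETS motif CCGGAAGT was in 1.82%, 6.56% and 1.16% of these classes. The shares were 0.528%, 2.93% and 0.414% for the NRF1 motif GCGCATGCG, and 0.686%, 3.24% and 0.248% for the YY1 motif AAGATGGCG. Each share was lower still in MEF-only promoters, so low shares were not particular to the members. The share with AP-1, searched as TGANTCA, lay between those of the other classes, at 14.8% of members, 8.60% of promoters open in both and 26.4% of MEF-only promoters. TTCAGCACC, a part of the REST site, was more frequent in members than in either class, at 1.98% of members, 1.09% of promoters open in both and 0.373% of MEF-only promoters. GGACAGCGC, another part of that site, was in 0.818%, 1.64% and 0.248%. Against promoters open in both, the parts of the site thus went opposite ways.

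Several CpG-containing motifs, but not all, were found in a larger share of germline members than of all members. The NRF1 motif was found in 6 of 38 germline members, of 20 members in all, and CACGTG in 8 of 38 (21.1%), against 10.1% of all members. The ETS motif, GCGGGAAA, an E2F site, and GGACAGCGC, a part of the REST site, were in 3, 2 and 1 of the 38, or 7.89%, 5.26% and 2.63%, against 1.82%, 1.35% and 0.818% of all members. The GC box was found in 7.89% of them, against 10.2%, and the YY1 motif and TGACGTCA, a CREB site, in 0 of the 38. Their median CpG ratio was 0.52. The stretches of Tex19.1, Stk31 and Brdt above show these matches within 171 bp of the start. TATAAA, the TATA box core, was found in 7 of the 38 (18.4%) and in 12.1% of all members.

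The platform comparison set BGI against Illumina within a cell type. The rule did not contrast the platforms, but it drew on both: members came from the BGI table and had to be on the mESC list of each platform and on the MEF list of neither. Their shares of calls are therefore given beside those of all peaks, with nothing read from the difference. edgeR's quasi-likelihood test with Benjamini-Hochberg adjustment was fitted over the whole BGI table, with 3 samples per platform. In mESCs all 3788 members passed the filter on low counts. Of these 50 had a lower BGI signal at an adjusted p under 0.05 and 0 a higher one, against 2.03% lower and 0.0216% higher of all peaks tested. At an unadjusted p under 0.05 there were 330 members. DESeq2, which gave an adjusted p for 2534 members, called 59 lower and 1 higher, against 5.22% and 0.0628% of the 41418 peaks it gave one for. The same libraries were read on both instruments, and with the library as a replicate block 537 members differed, 408 lower and 129 higher, against 12.2% and 4.02% of all peaks. In percent these are 10.8% and 3.41% of members.

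The members with a lower BGI signal were GC-rich gene starts. In the blocked fit their median GC content was 64.9%, against 50.1% in members with a higher BGI signal and 53.7% in those not called, and 76.5%, 39.5% and 43.8% lay at a gene's own start. Median log2 fold changes, BGI over Illumina, were -0.35 in the lower and 0.28 in the higher members. With a GC offset added to the blocked fit, 219 members were called, 143 lower and 76 higher (3.78% and 2.01%), against 3.03% and 2.89% of all peaks.

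CPM values were scaled over the samples of both cell types, and fold changes came from fits scaled within mESCs. The printed levels therefore do not give the fold changes exactly. Smad2, a mediator of NODAL and TGF-beta signals, had the lowest p. It was at 33.2, 34.2 and 27.0 CPM on BGI and 51.6, 54.9 and 47.4 CPM on Illumina in mESCs, a log2 fold change of -0.81 with an SE of 0.11 (adjusted p 0.0046 by edgeR, or 6.7e-50 in the blocked fit). Its GC content was 83.4%, and with the GC offset the fold change was -0.05 (edgeR adjusted p 0.70). Insm1, a neuroendocrine zinc finger gene, was at 14.6, 14.7 and 14.0 CPM on BGI and 22, 24.8 and 20.4 CPM on Illumina, a log2 fold change of -0.74 with an SE of 0.11 (adjusted p 0.0065 by edgeR), which shrank to -0.34 in the blocked fit with the GC offset (adjusted p 0.00043 by edgeR). The samples of the platforms did not overlap at either gene. Cnot6 (a deadenylase subunit), Rbmxl2 (a testis RNA-binding protein), Rock2 (a protein kinase) and Hnrnpa0 had log2 fold changes of -0.75, -0.77, -0.73 and -0.85, and Phyhipl, a neuronal gene, one of -0.59. With the GC offset Rock2 and Phyhipl were at -0.01 and -0.07 (edgeR adjusted p 0.95 and 0.58), and Cnot6, Rbmxl2 and Hnrnpa0 were still called at -0.34, -0.32 and -0.36.

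Over the BGI table, edgeR called members higher on BGI in mESCs in the fits with the block alone, with small changes. In the peak set pooled over both platforms, 1 member was called higher without the block. As above, levels were scaled over both cell types and fold changes within mESCs. Tex50, a testis gene, was at 19.3, 22.8 and 19.5 CPM on BGI and 12.9, 15.6 and 12.7 CPM on Illumina, a log2 fold change of 0.48 (edgeR adjusted p 2.2e-08 with the block and 0.069 without). Aim2, a sensor of cytosolic DNA, differed by 0.30, Agps by 0.20 and Zmynd8 by 0.17, with edgeR adjusted p of 2.9e-05, 1.2e-05 and 2e-06 with the block and 0.46, 0.64 and 0.71 without. These differences are small beside the log2 differences between cell types at the same promoters, 5.14, 5.84 and 4.98.

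In MEFs most members called between platforms were also lower on BGI. Of 3788 members 3622 passed the filter on low counts, which removes low MEF counts. Of those tested 64 were lower on BGI and 0 higher, against 3.95% lower and 0.0391% higher of all peaks, and 325 had an unadjusted p under 0.05. DESeq2, whose filter on mean count left an adjusted p for 172 members, called 63 of these, all lower, against 8.88% lower and 0.137% higher of the 41479 peaks it gave one for. With the block 365 were lower and 22 higher, against 12.9% and 5.46% of all peaks, and with the GC offset added 171 and 10, against 4.23% and 3.9%.

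**Figure D5:**
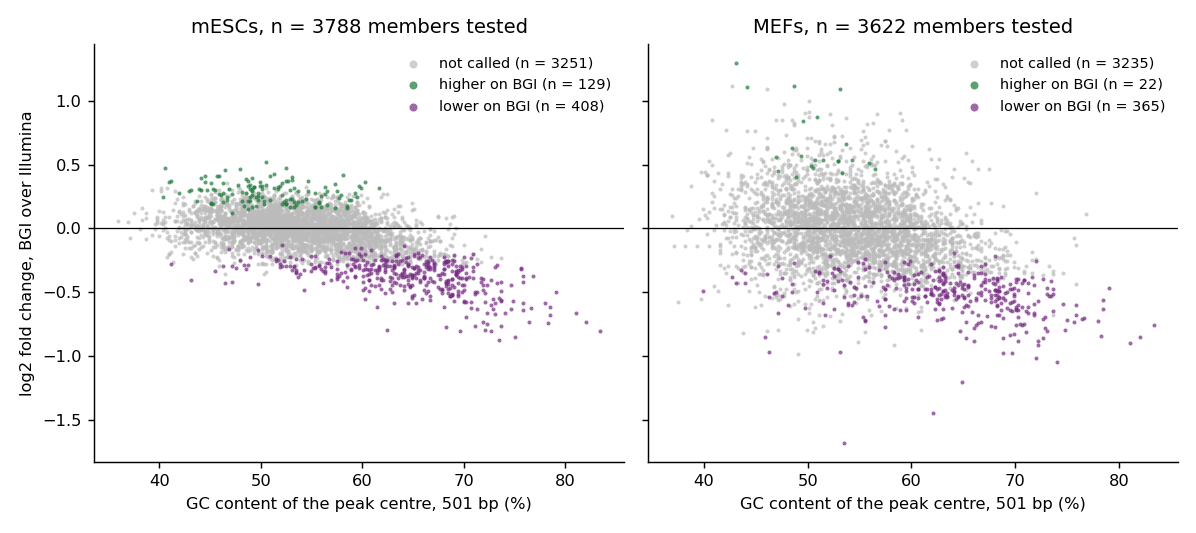
Log2 fold change, BGI over Illumina, of each member tested against the GC content of its peak centre (percent), in mESCs (left) and MEFs (right), from edgeR with the library as a block and members coloured by call. Purple points, lower on BGI (408 in mESCs and 365 in MEFs), sit towards high GC content, and in mESCs the 129 higher members have a median GC content of 50.1%.

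The interaction of platform and cell type asks whether the BGI-to-Illumina ratio differed between mESCs and MEFs. No member was called by edgeR or DESeq2 without the block, with 126 members at an unadjusted p under 0.05 in edgeR, and 0% of all 91354 peaks passed in either direction. With the library as a block 11 members had a higher ratio in mESCs and 0 a lower one, against 0.379% and 0.00766% of all peaks. The median interaction over all peaks was 0.11 on the log2 scale with TMM scaling and -0.01 with size factors of the RLE method, a shift to which all these values are relative.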

How the data were processed

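OMNI-ATAC-seq libraries were trimmed, aligned to GRCm38 (mm10) with Bowtie2, freed of duplicates and down-sampled by the authors to an equal depth within each cell type. The authors called peaks per sample with MACS2, whose deposited intervals carry a −log10 p, and merged them into peak lists of fixed width per cell type and platform, and into consensus tables whose deposited values are raw read counts per peak. Reads in peaks numbered 15860985 to 21831840 per sample. Columns without a platform suffix were taken as Illumina.

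Peaks were matched to starts in GENCODE M21, and bases were read from the same build. At 69 of 91354 peaks no sequence was read. CPM used reads in peaks multiplied by TMM factors over all 12 samples. Log2 differences used TMM scaling within each platform and a prior count of 2. Each fit was scaled over its own samples. Counts were tested with edgeR 4.0.16 (R 4.3.3) by quasi-likelihood after filterByExpr, two-sided, at an adjusted p of 0.05 over all peaks, in 3 designs: platform within mESCs, platform within MEFs, and their interaction. The fits were tested on simulated data, and DESeq2 1.42.0 was an alternative. Libraries are biological replicates by the study's methods. Library numbers pair the samples across platforms, since each library was read on both: deviations from group means correlated at 0.37 to 0.54 between same-numbered mESC samples and at 0.38 to 0.57 in MEFs, and below 0 otherwise. MEF and mESC samples were not paired.

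The members and the 11 gene lists were chosen with earlier results of these data known. Named members were the up to 4 with the highest mESC CPM in each list, the 8 with the highest CPM, the 8 with the largest and the 4 with the smallest log2 difference, the 4 with the lowest platform p in each direction, up to 6 genes with the most members, up to 6 whose gene had another promoter on a MEF list, and those nearest to the distance limit. Other list members and the printed sequences were chosen after their values were seen. The count tables hold no column of a sample outside the series.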

Additional observations from a re-analysis of the deposited data

Results flagged for a closer look

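With the library as a block, 11 members had a higher BGI-to-Illumina ratio in mESCs than in MEFs by edgeR's test of the interaction, on the log2 scale. In size, the platform effect was smaller in mESCs at each of the 11. These 11 are 0.29% of the members, under the 0.379% of all peaks called in the same direction, so the count is no result about the members. Without the block no member passed. The median interaction over all peaks was 0.11, and the values below are not reduced by it. The interactions came from a fit over the samples of both cell types. The platform effects printed beside them, mESCs first, came from a separate fit per cell type with its own scaling. An interaction is therefore not the exact difference of those effects.

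Cbx2, of Polycomb, had an interaction of 0.48, beside a platform effect of -0.38 in mESCs and -0.75 in MEFs in the separate fits. Mta2 and Mta3, of the NuRD complex, had interactions of 0.51 (beside -0.21 and -0.61) and 1.86 (beside 0.07 and -1.68). At Mta3 the MEF samples were at 0.204 to 0.990 CPM.

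Gm10406, a predicted gene with near-identical copies and therefore uncertain, had an interaction of 0.92 (beside platform effects of -0.39 and -1.20 in the separate fits). Car3, a carbonic anhydrase gene, had 0.66 (beside -0.01 and -0.57), Rnf10, a ubiquitin ligase gene, 0.64 (beside -0.04 and -0.58) and Ptbp1, a splicing regulator, 0.72 (beside 0.13 and -0.47). Tln1 (talin) had 0.39 (beside 0.14 and -0.15) and Klf10, a TGF-beta response factor, 0.37 (beside -0.25 and -0.51). Sema6b, a semaphorin, had 0.63 (beside -0.30 and -0.83) and Tent5a, a poly(A) polymerase, 0.52 (beside 0.04 and -0.37). The adjusted p by edgeR ran from 0.021 to 0.047 over the 11.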

How the results depend on the processing

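Counting gene starts only gave 1820 members, and the other choices of annotation, window, overlap and table gave 2699 to 5262. The median log2 difference between cell types was 2.16 on BGI and 2.13 on Illumina when every library size was set to its equal down-sampled depth, 1.88 on both with 50% overlap with the lists, and 2.30 on both over the members more than 500 bp from a MEF-list peak, an alternative chosen after the data were seen. Fixed library sizes moved the median of all peaks from -0.07 to 0.06. At named members 496 of 504 log2 differences moved by less than the replicates' SD, none changed sign, and 8 moved further.

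Calls between platforms depended most on the replicate block. In mESCs 50 members were called without it, 537 with it, and 219 when a GC offset joined the block. Fixed library sizes gave 23, and leaving out a library gave 0 to 26 without the block (0 without library 1 or 5) and 310 to 400 with it (377 without library 5). In MEFs the counts were 64, 387, 181 and 33. Leaving out a library gave 0 to 121 (0 without library 1 or 2, 121 without library 4), and 269 to 337 with the block. Over all peaks the mESC calls were 1715 without the block, 13585 with it, 4949 with the GC offset and 843 with fixed sizes, and the MEF calls 3471, 16007, 7078 and 1904. The interaction gave 0 members, and 11 with the block. The share of members with any of the 17 motifs was 80.1% within 250 bp of the centre and 55.6% within 100 bp. Of 143 platform differences at named members under alternatives, 104 kept their direction and side of the threshold, 21 gained it and 18 lost it, none reversing. The peak set pooled over both platforms in MEFs held no member, so no value was had there. At low MEF levels, often under 1 CPM, depth limits how low a promoter can be read.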

Other observations

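Members were not spread evenly over the genome. Their share of promoter peaks ran from 10.4% on chromosome X to 19.4% on chromosome 7. Runs of at least 6 members with gaps of no more than 100 kb included 40 members of 29 genes over 744 kb on chromosome 7, between Nosip and Cyth2, with a median log2 difference of 2.47. On chromosome 10, 29 members of 21 genes lay between Dot1l and Ankrd24, with a median of 1.62. These regions are dense in genes, and no test of the clustering was made.

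Some runs held genes of related function. On chromosome 6, 10 members between Rimklb and Slc2a3 included Nanog, Gdf3 and Dppa3, with a median log2 difference of 3.41 and median levels of 12.1 CPM in the stem cells and 1.11 CPM in MEFs. On chromosome 18, 15 members lay at the variable first exons of the gamma protocadherins, cell-surface adhesion proteins of neurons, from Pcdhga1 to Pcdhga11 over 94.5 kb. Their medians were 8.53 CPM in mESCs and 2.81 CPM in MEFs, a log2 difference of 1.63, and none of the 15 belonged to a gene with another promoter open in MEFs. These first exons resemble each other, and reads can be split between them, so the levels are uncertain.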
